A study of Mus musculus with 16 samples.

Results

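Constricted hearts treated with THZ1 were compared with healthy untreated hearts to see which genes had not returned to the healthy level, and which had moved past it. The comparison set the 4 libraries of TAC-THZ1 against the 4 libraries of Sham-Veh, and covered every gene with a normalized count of 10 or more in at least 4 of the 16 libraries, which kept 13331 of 22372 genes. All mice were C57BL/6J, 10 to 12 weeks old at the start, and the RNA came from pieces of the heart ventricles. Transverse aortic constriction (TAC) narrows the aortic arch with a suture so that the left ventricle works against a raised pressure, and sham surgery leaves the suture out. TAC-THZ1 mice had the constriction and intraperitoneal THZ1 at 10 mg/kg in 2 daily injections, begun on day 1 and kept up to day 60, and Sham-Veh mice had sham surgery and vehicle. The dose is the one in the sample labels, and the methods of the study describe the dosing schedule differently. TAC-Veh (constriction with vehicle) and Sham-THZ1 (sham surgery with THZ1), also 4 libraries each, were used only to place this comparison. THZ1 reached the whole animal and not one cell type, and the groups of this comparison differ in surgery and in drug, so that the part of each in a difference cannot be told apart.

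Pressure overload makes cardiomyocytes grow and switch on a fetal gene programme, in which natriuretic peptides, beta myosin heavy chain and skeletal actin rise while genes of calcium cycling and fatty acid oxidation fall. Fibroblasts turn into matrix-secreting cells that deposit collagens and matricellular proteins. THZ1 is a covalent inhibitor of CDK7, and at higher exposure of CDK12 and CDK13, kinases that phosphorylate the tail of RNA polymerase II.

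The 8 libraries held 25.4 to 35.8 M reads in protein-coding genes, of which 36.7 to 44.7% fell in mitochondrially encoded genes. No pair of replicates agreed within counting noise (chi-square per degree of freedom of 3.06 or more between replicates), so none was counted as a duplicate. The labels number the libraries of each group 1 to 4 without naming the animals. If they were not separate animals, the p-values measure only the spread between these libraries. The ventricular light chain Myl2 was at 216224 to 225262 normalized counts in Sham-Veh and 244174 to 316186 in TAC-THZ1, so that the defining marker of the labelled tissue was abundant in every library. In bulk tissue, fewer cells of a type and less RNA per cell cannot be told apart.

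One property of the libraries moved with the groups and stands beside every count that follows. Genes were split into 5 equal groups by exon length, and the median log2 difference between TAC-THZ1 and Sham-Veh went from 0.21 in the shortest group (93 to 2094 bases) through 0.07, -0.01 and -0.07 to -0.17 in the longest (6299 to 116828 bases). The median of the shortest minus that of the longest group was 0.357 to 0.437 in the 4 TAC-THZ1 libraries and -0.014 to 0.026 in the 4 Sham-Veh libraries, with no overlap between them. The 4 Sham-THZ1 libraries sat at 0.010 to 0.075. The TAC-Veh libraries were spread from about the Sham-Veh level to within the TAC-THZ1 range, at 0.422, 0.172, 0.343 and -0.016. The cause of the trend was not tested. The comparison was therefore repeated after each library's trend on exon length had been smoothed and subtracted, a step chosen after the data were seen, and that fit is called length-corrected below.

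**Figure D1:**
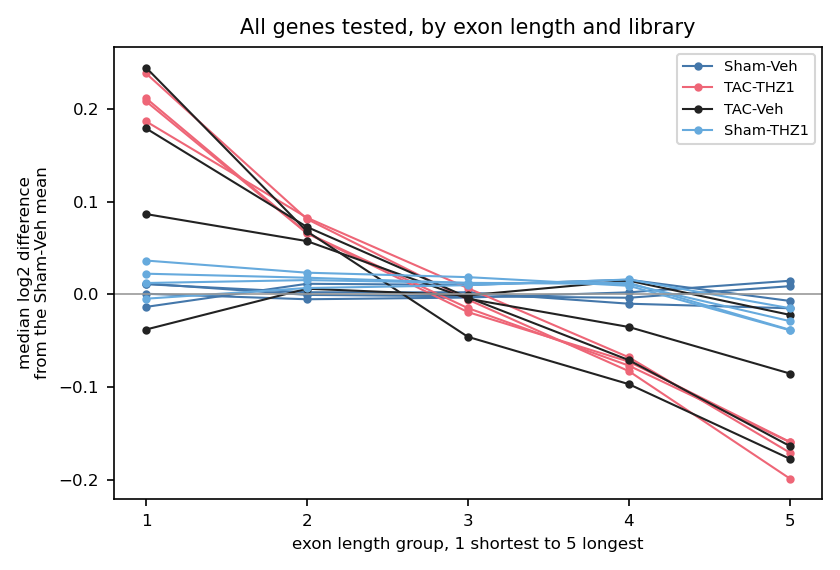
Median log2 difference of each of the 16 libraries from the Sham-Veh mean (vertical axis) for all 13331 genes split into 5 equal groups by exon length (horizontal axis), 1 line a library. All 4 TAC-THZ1 lines fall from the shortest to the longest group, by 0.357 to 0.437, while the Sham-Veh lines stay level.

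With thresholds of 0.05 on the adjusted p and 1 on the absolute log2 difference, 157 genes (1.18%) were higher and 115 (0.863%) were lower in TAC-THZ1 than in Sham-Veh. By the adjusted p alone, 1453 (10.9%) were higher and 1577 (11.8%) lower, and both shares stand beside every list count that follows. At the other end, 8896 genes (66.7%) had a 95% confidence interval of the difference that lay wholly within 1.5-fold of the healthy level. The length-corrected fit kept 122 of the 157 and 91 of the 115, but only 670 of the 1453 and 715 of the 1577. By the adjusted p in that fit, 844 genes (6.33%) were higher and 814 (6.11%) lower. The untreated constricted hearts differed from the same Sham-Veh libraries in 619 higher (4.64%) and 449 lower (3.37%) genes at the log2 threshold. Of the 157 higher genes, 123 were also called higher in TAC-Veh and 34 were not. Of the 115 lower genes, 77 were also called lower in TAC-Veh and 38 were not. These comparisons share the Sham-Veh libraries, so the shared calls are given as a description.

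A list of constriction genes was also taken from TAC-Veh against Sham-THZ1, which called 647 genes (4.85%) higher and 489 (3.67%) lower. The means behind it are those of the other 8 libraries, but its estimate of spread and its filter on low values use all 16. Of the 647, 111 (17.2%) were still called higher in TAC-THZ1 than in Sham-Veh at the log2 threshold and 233 (36.0%) by the adjusted p, against 1.18% and 10.9% of all genes. Within 1.5-fold of the healthy level lay 64, of which 3 also passed the adjusted p, while 2 had passed the adjusted p the other way and 351 were neither called nor shown to be near. The median of the 647 was 0.54 log2 units above Sham-Veh, against 1.44 in the comparison that chose them and 0.00 for all genes. Of the 489 lower genes, 64 (13.1%) were still called lower at the log2 threshold and 185 (37.8%) by the adjusted p, 59 lay within 1.5-fold (1 of them also past the adjusted p), 3 had passed the other way and 243 were neither, with a median of -0.52 against -1.33. The 1.44 and the -1.33 were partly set by that choice of genes. The 2 counts near the healthy level depended on single libraries. The 64 became 31 to 42 without Sham-Veh replicate 1, 3 or 4 or TAC-THZ1 replicate 2 and 103 without TAC-Veh replicate 3, and the 59 became 38 and 39 without Sham-Veh replicate 1 or TAC-THZ1 replicate 2, 100 without TAC-Veh replicate 3 and 91 without TAC-Veh replicate 4.

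The treated hearts were not alike. The median of the 647 higher genes stood 0.58, 0.23, 0.64 and 0.52 log2 units above the Sham-Veh mean in TAC-THZ1 replicates 1 to 4, and the median of the 489 lower genes stood at -0.62, -0.27, -0.64 and -0.54. Replicate 2 was the closest to healthy on both lists. In TAC-Veh the higher list stood at 1.12 to 1.79, above every treated heart. The TAC-Veh libraries were used to choose the list, so that this gap was partly set by the choice. In Sham-Veh the list stood at -0.06 to 0.12, and no treated heart overlapped the healthy ones.

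**Figure D2:**
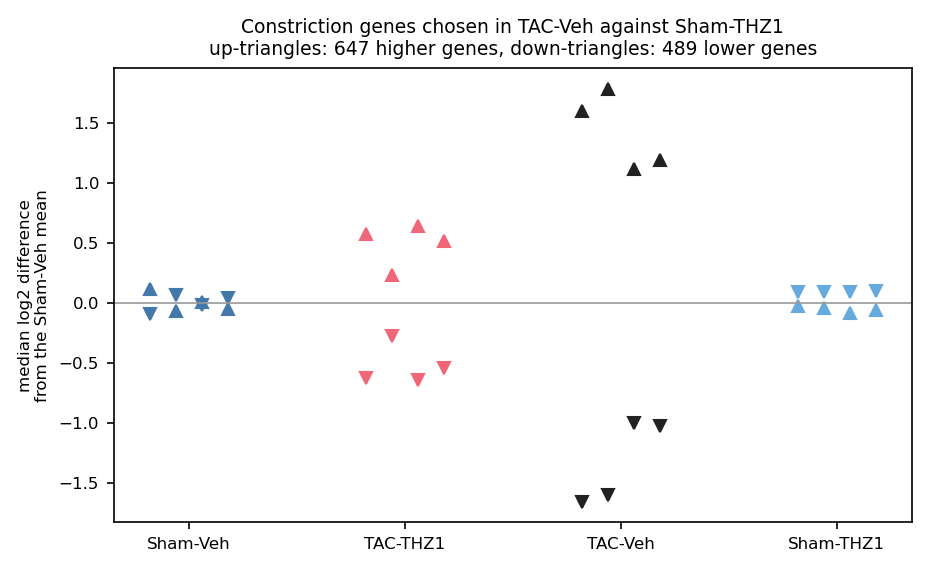
Median log2 difference from the Sham-Veh mean (vertical axis) in each of the 16 libraries for the 647 genes higher (up-triangles) and the 489 genes lower (down-triangles) in TAC-Veh than in Sham-THZ1; the columns are the 4 groups. TAC-THZ1 lies between Sham-Veh and TAC-Veh on both lists, with replicate 2, the second from the left, nearest to 0. The TAC-Veh libraries were used to choose both lists, so that their distance from the others was partly set by that choice.

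Myh7 and Acta1, of the fetal contractile programme, were far above healthy. Myh7 (ENSMUSG00000053093.9, chr14:55589525-55613471 on NCBIM37), which encodes the slow beta myosin heavy chain, had 2787, 2268, 1251 and 2729 normalized counts in the Sham-Veh libraries and 31818, 8845, 49784 and 14202 in the TAC-THZ1 libraries. The groups did not overlap, and TAC-THZ1 replicates 2 and 4 were well under replicates 1 and 3. This was a log2 difference of 3.29 (SE 0.47, adjusted p = 0.000728, limma), against 4.24 for TAC-Veh and Sham-Veh, and TAC-THZ1 did not differ from TAC-Veh past the threshold (-0.95, adjusted p = 0.135). Of the 40-base windows of the Myh7 transcripts, 25.8% also occur in another gene, mostly in Myh6, and reads from them cannot be placed. Acta1, the skeletal alpha actin of the fetal heart, had 5549, 2903, 3931 and 4262 normalized counts in Sham-Veh and 35837, 25802, 36006 and 59180.4 in TAC-THZ1. It was higher by 3.21 (SE 0.23, adjusted p = 1.98e-06) and differed from TAC-Veh by -1.17 (adjusted p = 0.00172). Of the 8 contractile isoforms tested that stressed or fetal hearts raise, 3 were higher (Myh7, Acta1 and Mybpc2) against 10.9% of all genes, and none was lower, or 1 without TAC-THZ1 replicate 3. The median of the 8 was 0.17, and 0.06 in the length-corrected fit. Mybpc2, a myosin binding protein of fast muscle, lost its call without Sham-Veh replicate 2, 3 or 4 or TAC-THZ1 replicate 1 or 4 (adjusted p up to 0.0883). Of 14 adult sarcomere genes, 10 lay within 1.5-fold of healthy, a share close to the 66.7% of all genes, and the 1 that passed the test was Myh6, the adult alpha myosin heavy chain. Myh6 fell from 468904, 528707, 489627 and 517185 normalized counts to 262747, 357361, 287475 and 307407, or -0.73 on the log2 scale (SE 0.19, adjusted p = 0.0131), and it shares 26.6% of its windows with other genes. The Myh6 call was lost with no filter and with quantile normalization (adjusted p up to 0.0811).

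Natriuretic peptides, the hormones that the loaded heart secretes, also stayed high. Nppa, the precursor of atrial natriuretic peptide, had 4544, 2743, 2788 and 3172 normalized counts in Sham-Veh and 35178, 12865, 42633 and 19261 in TAC-THZ1. Every treated heart was above every healthy one, with the lowest value again in replicate 2. The log2 difference was 2.93 (SE 0.40, adjusted p = 0.000499), where TAC-Veh stood at 4.76. Nppb, the precursor of B-type natriuretic peptide, had 3822, 2775, 3839 and 3344 in Sham-Veh and 10630.1, 7065, 13234 and 11292 in TAC-THZ1 (1.59, SE 0.21, adjusted p = 0.000358). Corin, the protease that activates both precursors, went the other way, from 5329, 6469, 5781 and 6047 to 3787, 4615, 3114 and 3519 (-0.66, SE 0.10, adjusted p = 0.00104). Npr3, the receptor that clears the peptides, was higher by 0.47 (SE 0.14, adjusted p = 0.0215), a call lost without Sham-Veh replicate 1 or 4 or TAC-THZ1 replicate 1 or 3 (adjusted p up to 0.0712). The vasoconstrictor gene Edn3 (endothelin 3) was among the 10 largest, with 71.1, 38.5, 41.6 and 82.7 normalized counts in Sham-Veh and 306, 286, 435 and 441 in TAC-THZ1 (2.68, SE 0.25, adjusted p = 1.47e-05). Edn3 stood at 2.93 in TAC-Veh, and TAC-THZ1 did not differ from TAC-Veh past the threshold (-0.25, adjusted p = 0.477).

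Genes that respond to stretch and to calcineurin, a calcium-activated phosphatase of growing muscle, stayed raised as a group. Of 17 tested, 11 were higher and none lower, with a median log2 fold change of 0.49 (all genes 0.00; TAC-Veh 0.91), and the count was 10 in the length-corrected fit and 10 to 11 when any 1 library was left out. Ankrd1, a stretch-induced titin-binding protein, went from 44102, 28613, 28285 and 25500.4 normalized counts to 77414, 59189, 61209.9 and 98587 (1.23, SE 0.19, adjusted p = 0.00102). Rcan1, a calcineurin target and feedback regulator, went from 1497, 1189, 1271 and 1448 to 3131, 2032, 3868 and 2746 (1.09, SE 0.16, adjusted p = 0.000869). In both genes all 4 treated hearts were above all 4 healthy ones, as were 15.6% of all genes. Xirp2, an actin-binding protein of the intercalated disc, and Ankrd23, a relative of Ankrd1, were higher by 0.96 (SE 0.15, adjusted p = 0.00126) and 1.16 (SE 0.14, adjusted p = 0.000247). Itgb1bp3, which encodes a muscle nicotinamide riboside kinase also called Nmrk2, had 52.0, 28.9, 50.4 and 39.1 normalized counts in Sham-Veh and 245, 121, 735 and 225 in TAC-THZ1, with replicate 3 the highest (2.64, SE 0.65, adjusted p = 0.0106).

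**Figure D3:**
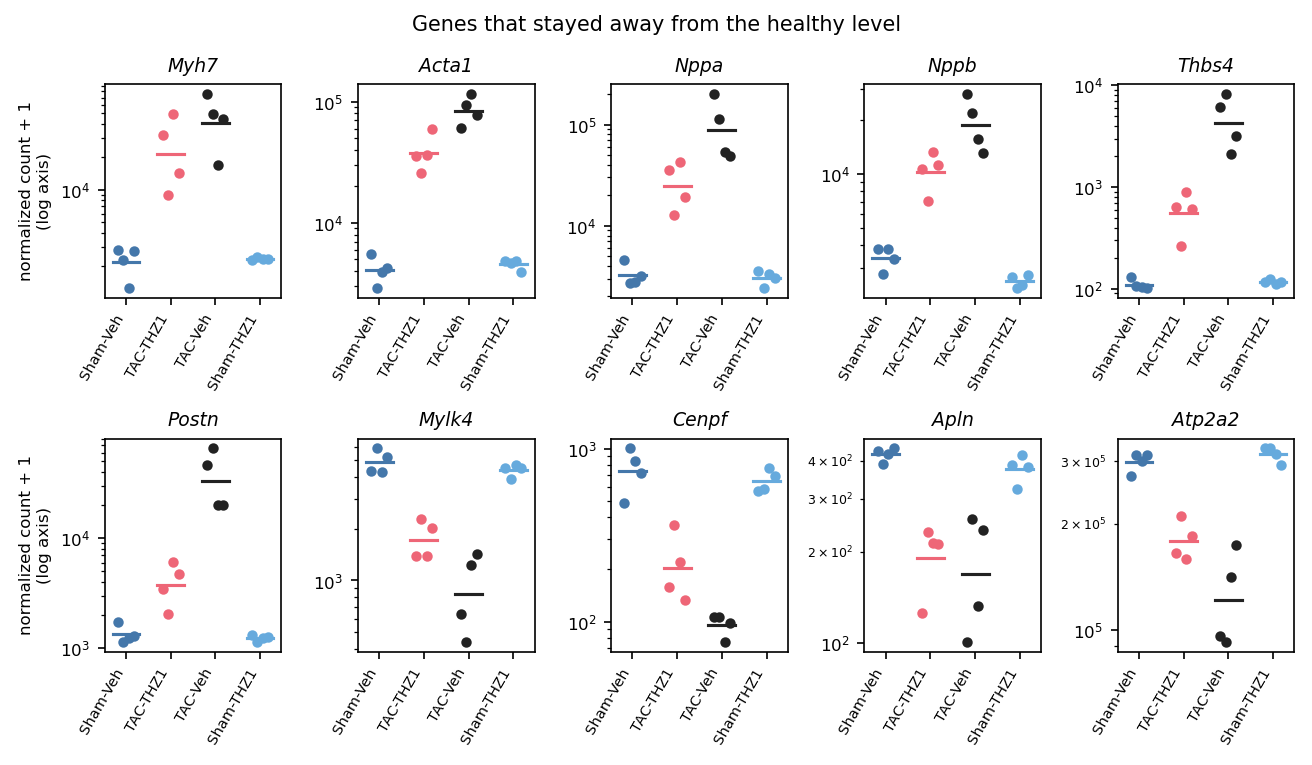
Normalized count plus 1 (vertical log axis) of 10 genes in the 4 libraries of each group; points are libraries in replicate order from left to right and bars are geometric means. Myh7, Acta1, Nppa, Nppb, Thbs4 and Postn lie above Sham-Veh in every TAC-THZ1 library, and Mylk4, Cenpf, Apln and Atp2a2 lie below it in every one.

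The matrix was split between genes that stayed high and genes that ended below healthy. Matricellular proteins and small proteoglycans, which bind collagen and signal to cells, stayed high: 10 of 23 tested were higher and 1 was lower, with a median log2 fold change of 0.51 against 2.05 in TAC-Veh. The count of 10 was the same in the length-corrected fit and 9 to 10 without any 1 library. Thbs4, thrombospondin 4, had 128, 104, 103 and 101 normalized counts in Sham-Veh and 632, 261, 899 and 611 in TAC-THZ1 (2.33, SE 0.36, adjusted p = 0.00104), and the mean in TAC-Veh was 4916. Postn, periostin, the marker of activated fibroblasts, had 1721, 1141, 1241 and 1289 in Sham-Veh and 3455, 2029, 6054 and 4704 in TAC-THZ1 (1.5, SE 0.34, adjusted p = 0.00724). Postn was far below TAC-Veh (-3.15, adjusted p = 3.97e-05) and still above healthy in all 4 hearts. Comp, cartilage oligomeric matrix protein, was higher by 2.06 (SE 0.38, adjusted p = 0.00261), Fmod, the collagen-binding fibromodulin, by 2.44 (SE 0.37, adjusted p = 0.00102) and Cilp, a cartilage matrix protein of activated fibroblasts, by 1.65 (SE 0.30, adjusted p = 0.00249). Fmod was at 17.0, 5.61, 8.84 and 13.8 normalized counts in Sham-Veh, close to the lowest level tested. The lower member was Thbs2, thrombospondin 2, at -0.74 (SE 0.15, adjusted p = 0.00387), named after its value was seen. Ctgf, connective tissue growth factor, did not pass in the main fit, with 1726, 1967, 1434 and 2184 normalized counts in Sham-Veh and 2526, 2556, 2496 and 4159 in TAC-THZ1 (0.66, 95% interval -0.06 to 1.39, adjusted p = 0.167). It passed as higher with the 2 groups alone and with array weights (adjusted p down to 0.00852).

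Elastic fibre genes and their latent TGF-beta binding partners gave 4 higher and 1 lower of 22, where 10.9% of all genes were higher and 11.8% lower, so that the lower count is under that share. Ltbp2, which anchors to elastic microfibrils, had 187, 96.3, 87.5 and 90.8 normalized counts in Sham-Veh and 447, 246, 581 and 489.9 in TAC-THZ1 (1.93, SE 0.35, adjusted p = 0.00235), while Ltbp1, which holds latent TGF-beta, was lower, at -0.65 (SE 0.09, adjusted p = 0.000823). Ltbp1 was the lower gene of the list, and the length-corrected fit kept it at -0.46. Without TAC-Veh replicate 1, 2 or 4 the lower count was 2, and without replicate 3 it was 3. Timp1, an inhibitor of matrix metalloproteinases, was at 52.0, 20.1, 71.6 and 44.8 in Sham-Veh and 187, 108, 298 and 124 in TAC-THZ1 (1.92, SE 0.47, adjusted p = 0.00993).

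Basement membrane genes ended below the healthy level. This sheet of type IV collagen, laminin, nidogen and perlecan wraps capillaries and cardiomyocytes. Of 15 genes tested, 12 were lower in TAC-THZ1 than in Sham-Veh and none higher, where 11.8% of all genes were lower. The median was -0.49, against 0.06 in TAC-Veh. These genes are long (median 8272 bases of exon), which is where the length trend points down, and the length-corrected fit left 9 of 15 lower with a median of -0.31. Leaving out any 1 library gave 10 to 15. Col4a1, a chain of the common type IV collagen, had 11785, 9405, 8735 and 12539 normalized counts in Sham-Veh and 6129, 6358, 5719.7 and 6639 in TAC-THZ1. Its partner chain Col4a2 had 9004, 7692, 7460.4 and 10127 in Sham-Veh and 4968, 5353, 5177 and 5395 in TAC-THZ1. For both, every treated heart lay below every healthy one, as in 16.1% of all genes. Col4a1 was lower, at -0.76 (SE 0.18, adjusted p = 0.00780) and Col4a2 at -0.70 (SE 0.16, adjusted p = 0.00746), and in the length-corrected fit at -0.62 and -0.57 (adjusted p = 0.0248 and 0.0224). In TAC-Veh both were higher than healthy on average, by 0.55 (adjusted p = 0.0183) and 0.43 (adjusted p = 0.0383). The means of TAC-Veh and TAC-THZ1 therefore lay on opposite sides of the healthy mean.

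The collagen IV pair lies head to head on chromosome 8, Col4a1 on the minus and Col4a2 on the plus strand. In the GENCODE annotation on NCBIM37 the first exons overlap by the 22 bases at chr8:11312805-11312826. The stretch is shown because both genes moved together and begin in it. Capitals mark the bases that both first exons hold, and the plus strand is given.
Col4a1 and Col4a2: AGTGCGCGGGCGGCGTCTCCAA
Counting used strand, and each gene's reads were therefore counted apart.

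Hspg2, perlecan, had 10486, 10725, 9731 and 13790.0 normalized counts in Sham-Veh and 5918, 6063, 6764 and 6077 in TAC-THZ1 (-0.84, SE 0.19, adjusted p = 0.00681). Unlike the collagen IV pair, it was already low in TAC-Veh (-0.49, adjusted p = 0.0461). Nid1, nidogen 1, which links laminin to collagen IV, had 4877, 4688, 4909.6 and 4792 in Sham-Veh and 3377, 3459, 3130.4 and 3477 in TAC-THZ1 (-0.52, SE 0.09, adjusted p = 0.00147) and -0.41 in the length-corrected fit (adjusted p = 0.00328). The groups did not overlap for Nid1, and TAC-Veh did not differ from Sham-Veh past the threshold (0.06, adjusted p = 0.601). Lamc1, the laminin gamma 1 chain, was lower, at -0.42 (SE 0.09, adjusted p = 0.00490). Pxdn, peroxidasin, an enzyme that cross-links collagen IV, was outside the list and lower, at -0.85 (SE 0.16, adjusted p = 0.00263). Nid1 and Lamc1 were named after their values were seen. Pericyte and smooth muscle markers, the cells that share this membrane on vessels, were lower in 6 of 11, where 11.8% of all genes were. The length-corrected fit left 4 lower, where 6.11% of all genes were in that fit. Unlike the basement membrane genes, this list had the same median in TAC-THZ1 (-0.31) and in TAC-Veh (-0.31). The lowest was smooth muscle myosin Myh11 (-1.08, SE 0.23, adjusted p = 0.00485). Endothelial markers were lower in 3 and higher in 2 of 12, where 11.8% of all genes were lower and 10.9% higher. Cdh5, VE-cadherin, was lower, at -0.72 (SE 0.12, adjusted p = 0.00139) and Emcn, endomucin, higher by 0.44 (SE 0.07, adjusted p = 0.00126). The endothelial lower count was 1 without Sham-Veh replicate 1 and 5 without TAC-Veh replicate 1. The part of cell number in the basement membrane counts was not tested.

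Fibrillar and associated collagens gave counts that hung on single libraries. Of 17 tested, 8 were lower and 1 (Col8a2) higher, with a median of -0.43 against 1.11 in TAC-Veh, but the length-corrected fit left 3 lower. The 8 became 3 without Sham-Veh replicate 1 or 4 or TAC-THZ1 replicate 1 or 2, and 4 without Sham-Veh replicate 3. The 1 higher became 0 without Sham-Veh replicate 4 or TAC-THZ1 replicate 1, 3 or 4, 2 without TAC-THZ1 replicate 2 and 3 without TAC-Veh replicate 2 or 3. Col15a1, a collagen that sits beside basement membranes, had 2944, 2438, 2594 and 3139 normalized counts in Sham-Veh and 1390.2, 1399, 1612 and 1933 in TAC-THZ1 (-0.82, SE 0.20, adjusted p = 0.00964; length-corrected adjusted p = 0.0238). The main scar collagens did not pass in the main fit: Col1a1 was at 1673, 1309, 1401 and 1768 in Sham-Veh and 893, 866, 1199 and 973 in TAC-THZ1 (-0.65, 95% interval -1.14 to -0.15, adjusted p = 0.0549). Col1a1 did pass as lower in 7 of 29 alternative fits (adjusted p down to 0.00283). These were the 2 groups alone, DESeq2, array weights and the fits without any 1 TAC-Veh replicate. Col3a1 gave -0.43 with an adjusted p of 0.200, or 0.0400 with the 2 groups alone. TAC-Veh stood at 1.11 and 1.59 for the 2 genes. Lox, the collagen cross-linking lysyl oxidase, had 126, 114, 102 and 129.8 normalized counts in Sham-Veh and 244, 148, 194 and 153 in TAC-THZ1 (0.62, 95% interval -0.34 to 1.58, adjusted p = 0.339), where TAC-Veh stood at 3.82. With the 2 groups alone Lox passed as higher (adjusted p = 0.0136).

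**Figure D4:**
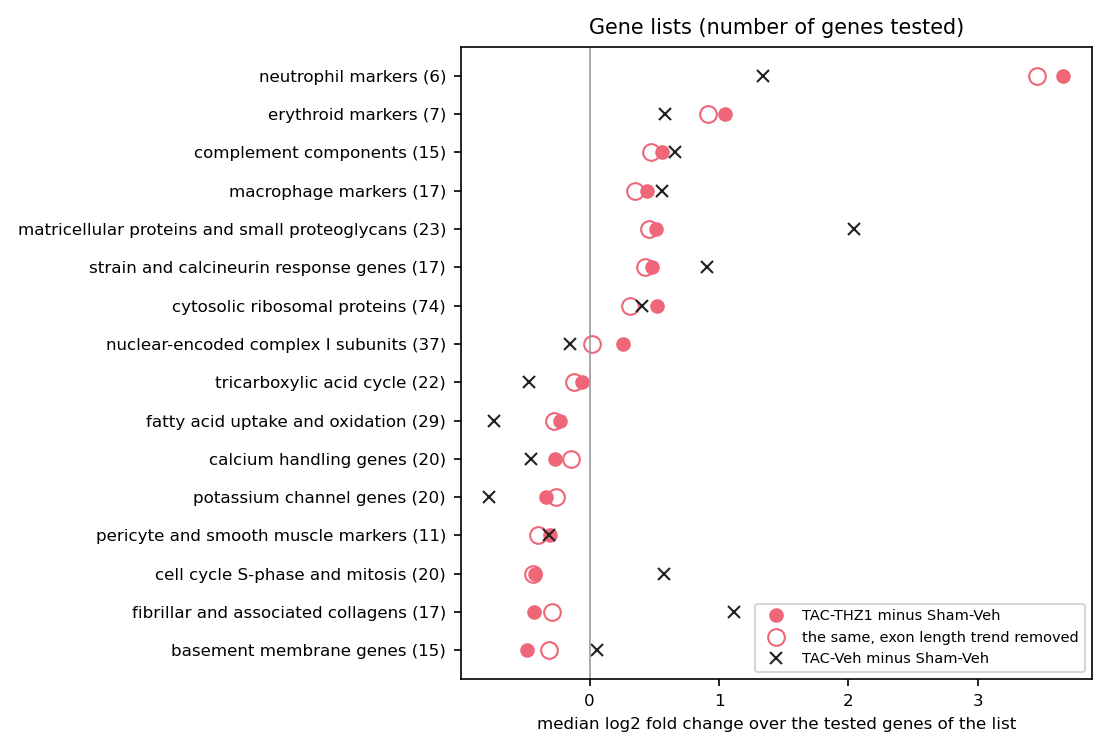
Median log2 fold change over the tested genes of 16 gene lists (horizontal axis) for TAC-THZ1 minus Sham-Veh (filled circles), the same with the exon length trend removed (open circles) and TAC-Veh minus Sham-Veh (crosses), which share the Sham-Veh libraries. Of the lists drawn, neutrophil markers stand highest at 3.66 and basement membrane genes lowest at -0.49. Once the length trend is removed, basement membrane genes stand at -0.31 and cell cycle genes are lowest at -0.43. The complex I median then falls from 0.26 to 0.02. Sodium, chloride and pacemaker channels, a list not drawn, had a lower median of -0.67 before that step.

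Genes lower than in Sham-Veh had many roles, and those described next were named by size alone or by their list. Aqp4, the water channel aquaporin 4, had 125, 224, 186 and 157 normalized counts in Sham-Veh and 21.8, 102, 30.1 and 27.7 in TAC-THZ1 (-2.16, SE 0.46, adjusted p = 0.00501), with replicate 2 nearest to the healthy hearts. Mylk4, a kinase of the myosin light chain kinase family in heart muscle, had 4335, 5889, 4263 and 5235 in Sham-Veh and 1384, 2291, 1381 and 2009 in TAC-THZ1 (-1.5, SE 0.28, adjusted p = 0.00258). Phkg1, the catalytic subunit of phosphorylase kinase in muscle, was lower, at -1.49 (SE 0.24, adjusted p = 0.00130), and Pfkfb1, a regulator of glycolysis, at -1.35 (SE 0.30, adjusted p = 0.00602). Ucp3, a mitochondrial uncoupling protein, was at 1675, 1689, 949 and 1319 in Sham-Veh and 523, 1072, 328 and 624 in TAC-THZ1, and the groups overlapped (-1.23, SE 0.39, adjusted p = 0.0337). The Ucp3 call was lost with robust eBayes and without Sham-Veh replicate 1, 2 or 4 or TAC-THZ1 replicate 1, 3 or 4 (adjusted p up to 0.105). Apln, apelin, a peptide that strengthens contraction, had 431, 389.8, 419 and 439 in Sham-Veh and 124, 232, 213 and 211 in TAC-THZ1 (-1.14, SE 0.24, adjusted p = 0.00521) and did not differ from TAC-Veh past the threshold (0.18, adjusted p = 0.624).

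One of the 10 largest lower genes carries a limit of its own. AF085738 had 263, 269, 306 and 315 normalized counts in Sham-Veh and 90.6, 106, 118 and 89.1 in TAC-THZ1 (-1.51, SE 0.19, adjusted p = 0.000344), but it lies opposite Gnas, whose mean count was 117 times as high. Against the same Sham-Veh libraries it stood at -1.72 in Sham-THZ1 and -1.35 in TAC-Veh. Of the 193 genes tested that lie opposite a gene over 20 times as abundant, 11 (5.70%) were called lower at the log2 threshold, against 0.863% of all genes, and 6 were called higher. Against the same Sham-Veh libraries the 11 stood at -0.04 to -2.59 in Sham-THZ1, where 5 of them passed the adjusted p. Counting was stranded, and the part of reads from the opposite strand was not tested.

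Ion channel and calcium genes of the adult heart stayed low in part. Of 20 potassium channel genes tested, 7 were lower and 1 higher, where 11.8% and 10.9% of all genes were. The median was -0.34 against -0.78 in TAC-Veh, and 5 genes were lower in the length-corrected fit. Kcnd2, a pore of the transient outward current, had 709.7, 784, 682 and 647 normalized counts in Sham-Veh and 339.6, 485, 321 and 341 in TAC-THZ1 (-0.94, SE 0.15, adjusted p = 0.00135). Kcnj2, the inward rectifier that holds the resting potential, was lower, at -0.80 (SE 0.15, adjusted p = 0.00297), and Kcnj3, an acetylcholine-gated rectifier, at -0.81 (SE 0.21, adjusted p = 0.0123). The 1 higher channel gene, the accessory subunit Kcne4, was not called in the length-corrected fit, nor when any Sham-Veh or Sham-THZ1 replicate or TAC-THZ1 replicate 1, 2 or 3 was left out. Of 20 calcium handling genes, 8 were lower and 1 (S100a1) higher, against the same shares of all genes. In the length-corrected fit 4 were lower and 1 was higher, but S100a1 lost its call there (adjusted p = 0.169). The 8 became 5 without Sham-Veh replicate 2, 3 or 4 and 4 without TAC-THZ1 replicate 1. Atp2a2, the SERCA2 pump that returns calcium to the sarcoplasmic reticulum, had 271781, 312899, 300564 and 313270.0 normalized counts in Sham-Veh and 165354, 209832, 158717 and 184082 in TAC-THZ1 (-0.75, SE 0.18, adjusted p = 0.00850; length-corrected -0.65, adjusted p = 0.0196). The ryanodine receptor Ryr2, with the longest transcripts of the named genes, went from -0.44 to -0.23 (adjusted p = 0.131) in that fit and lost its call.

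Genes of energy metabolism differed by pathway. All 22 genes of the tricarboxylic acid cycle lay within 1.5-fold, where 66.7% of all genes did, with a median of -0.06 against -0.47 in TAC-Veh, and Sdha of complex II was the 1 that passed the test. Sdha was not called without any 1 Sham-Veh or Sham-THZ1 replicate or TAC-THZ1 replicate 1, 3 or 4, and the list had 2 or 3 lower genes without TAC-THZ1 replicate 2 or any 1 TAC-Veh replicate. The Sdha call was also lost with no filter, with a replicate block and in the length-corrected fit, where no gene of the list was called. Of 29 genes of fatty acid uptake and oxidation, 18 lay within 1.5-fold, a share no higher than that of all genes, and 7 were lower against 11.8% of all genes, with a median of -0.23 against -0.74. The 7 became 2 to 4 without Sham-Veh replicate 1, 2 or 4 or TAC-THZ1 replicate 1, 3 or 4, and 14 without TAC-THZ1 replicate 2 or TAC-Veh replicate 2. Cpt1a, the gate for fatty acids into mitochondria, was lower, at -0.61 (SE 0.14, adjusted p = 0.00630), and Acot1, a thioesterase, at -0.93 (SE 0.28, adjusted p = 0.0249), though 51.3% of the Acot1 windows occur in a related gene. The Acot1 call was lost without Sham-Veh replicate 1, 2 or 4 or TAC-THZ1 replicate 1, 3 or 4 (adjusted p up to 0.0749). Of 12 regulators of these pathways, 4 were lower, where 11.8% of all genes were, and 4 in the length-corrected fit as well. Ppargc1b, a coactivator of mitochondrial genes, had 395, 388, 408 and 318 normalized counts in Sham-Veh and 143, 218, 279 and 195 in TAC-THZ1 (-0.89, SE 0.23, adjusted p = 0.0144, or 0.0535 without TAC-THZ1 replicate 1). Bdh1, the enzyme that oxidizes ketone bodies, stayed high at 4766, 4569, 5585 and 6027 against 2391, 2489, 3250.1 and 2621 in Sham-Veh (0.96, SE 0.15, adjusted p = 0.00104), as in TAC-Veh (1.04).

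Of the constriction genes within 1.5-fold of healthy, some with large differences between TAC-Veh and Sham-THZ1 follow. Ace, angiotensin-converting enzyme, had 2022, 1891, 1811 and 2038 normalized counts in Sham-Veh and 2225, 1870.1, 1978 and 2366 in TAC-THZ1, which overlapped (0.12, 95% interval -0.13 to 0.36), where the TAC-Veh mean was 5584. Vcan, the proteoglycan versican, had 700.1, 429.9, 489.8 and 563 in Sham-Veh and 453, 440.5, 784 and 644 in TAC-THZ1 (0.07, 95% interval -0.39 to 0.53; TAC-Veh mean 2051). F2r, the thrombin receptor, was at 0.18 (95% interval -0.21 to 0.56) against 1.41 in TAC-Veh. On the side that constriction lowers, Gpt, alanine aminotransferase, was at -0.05 (95% interval -0.40 to 0.30) against -1.42, and Gfra1, a receptor of neurotrophic ligands, at -0.03 (95% interval -0.46 to 0.40) against -1.60.

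Some genes ended past both vehicle groups. By the adjusted p, 189 genes (1.42%) were above both Sham-Veh and TAC-Veh and 255 (1.91%) below both, of which 12 and 21 passed log2 1 against Sham-Veh. The length-corrected fit kept 65 of the 189 and 103 of the 255. Both tests use the TAC-THZ1 libraries, so that a chance deviation there counts in each. The 189 became 91 to 125 without any Sham-Veh replicate or TAC-THZ1 replicate 1 or 2, 455 without TAC-Veh replicate 1 and 324 without TAC-Veh replicate 3. The 255 became 135 to 159 without Sham-Veh replicate 1 or 2 or TAC-THZ1 replicate 1, and 391 without TAC-Veh replicate 3. Of these genes, 19 had also moved the opposite way in TAC-Veh and are called overshot: Cyp1a1 above, and 18 below. The length-corrected fit kept Cyp1a1 and 8 of the 18 as overshot. The 18 became 4 to 11 without any Sham-Veh replicate or TAC-THZ1 replicate 1 or 2 and 64 without TAC-Veh replicate 3. The 1 above became 2 or 3 without TAC-THZ1 replicate 2 or 4 or TAC-Veh replicate 4, and 6, 27 and 48 without TAC-Veh replicate 2, 1 and 3.

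Cyp1a1 (ENSMUSG00000032315.5, chr9:57545420-57551629 on NCBIM37), the cytochrome P450 enzyme that the aryl hydrocarbon receptor switches on after exposure to planar aromatic compounds, had the largest fold change among the genes called. It had 9.55, 3.21, 8.84 and 16.1 normalized counts in Sham-Veh and 1541, 1528, 849.5 and 1006 in TAC-THZ1, so that every treated heart was far above every healthy one (7.00, SE 0.54, adjusted p = 2.76e-06). Sham-THZ1 hearts lay between, at 115, 256, 143 and 187. Of the TAC-Veh libraries 3 had no read and 1 had 6, against 4 to 14 reads in the Sham-Veh libraries, so the fall in TAC-Veh that makes it overshot rests on few reads. Of 7 receptor targets tested, 2 were higher, where 10.9% of all genes were. The count was 1 without any 1 Sham-Veh replicate or TAC-THZ1 replicate 1 or 3, and 1 in the length-corrected fit. The target called beside Cyp1a1 was Ugt1a7c, a glucuronosyltransferase named after its value was seen. Ugt1a7c was at 20.2, 12.0, 16.8 and 19.5 in Sham-Veh and 48.1, 25.5, 41.5 and 23.8 in TAC-THZ1 (0.94, SE 0.31, adjusted p = 0.0379), and it was not called in the length-corrected fit (adjusted p = 0.0593). Cyp1b1, a related P450 enzyme, had 152, 154, 145 and 138 normalized counts in Sham-Veh and 467, 213, 276 and 159 in TAC-THZ1 (0.80, adjusted p = 0.0717), and stood at 1.60 in TAC-Veh. Cyp1b1 passed in 7 of 29 alternative fits (adjusted p down to 0.0199). Ahrr, the receptor's repressor, was at 0.11 (adjusted p = 0.815) and Nqo1, a quinone reductase, was at 0.13 (adjusted p = 0.490).

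The sequence before Cyp1a1 is shown because this was the only target of the list past log2 1. The letters searched were GCGTG, the core that the receptor binds, and its reverse complement CACGC, in the 1500 bases before the annotated start on NCBIM37, with overlapping matches counted. There were 12 matches before Cyp1a1, which 0.0975% of all tested genes reached or passed, 10 before Cyp1b1 (0.255%), 6 before Ahrr (3.41%) and 1 before Nqo1 (74.5%). Ugt1a7c had none. The 300 bases with the most matches in the Cyp1a1 window were chr9:57543976-57544275 on the plus strand, 1444 to 1145 bases before the start, with 5 matches in capitals, a number that 1.59% of tested genes reached in some 300 bases of the same 1500. A match is a run of letters and not a shown binding site.
Cyp1a1: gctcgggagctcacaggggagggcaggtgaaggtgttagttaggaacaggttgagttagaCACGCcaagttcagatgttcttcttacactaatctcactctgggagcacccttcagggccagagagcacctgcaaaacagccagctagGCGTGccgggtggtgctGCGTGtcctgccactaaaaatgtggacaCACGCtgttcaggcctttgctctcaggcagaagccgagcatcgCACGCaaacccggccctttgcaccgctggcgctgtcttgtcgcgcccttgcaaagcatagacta

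**Figure D5:**
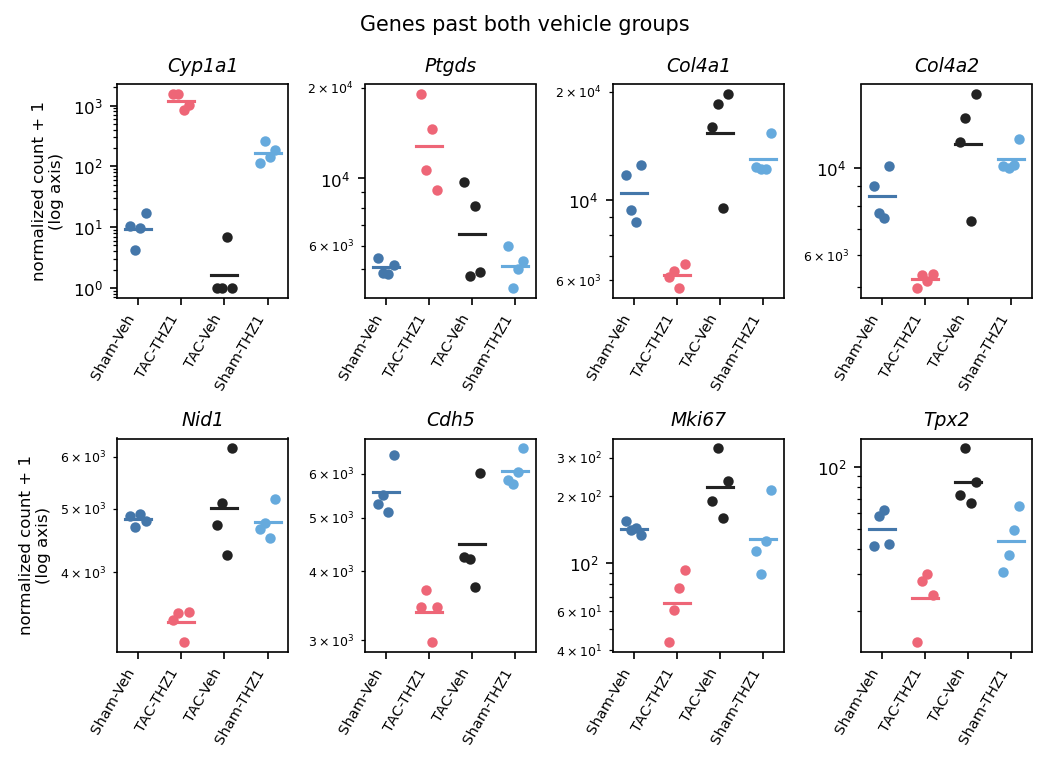
Normalized count plus 1 (vertical log axis) of 8 genes that ended past both vehicle groups, in the 4 libraries of each group; points are libraries in replicate order and bars are geometric means. In TAC-THZ1, Cyp1a1 lies above every vehicle library and Ptgds above all but the highest TAC-Veh library, which exceeds the lowest TAC-THZ1 library, and Col4a1, Col4a2, Nid1, Cdh5, Mki67 and Tpx2 lie below the Sham-Veh libraries.

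Above both groups without having fallen in TAC-Veh stood Ptgds, the lipocalin-type prostaglandin D synthase. It had 5443, 4849, 4841 and 5186 normalized counts in Sham-Veh and 19011, 10672, 14589 and 9162 in TAC-THZ1 (1.34, SE 0.22, adjusted p = 0.00151) and a TAC-Veh mean of 6875 (0.97, adjusted p = 0.00450). Rom1, a tetraspanin known from photoreceptors, had 300.2, 272, 322 and 311 in Sham-Veh and 637, 481, 855 and 536 in TAC-THZ1 (1.02, SE 0.18, adjusted p = 0.00179). Gsta3, a glutathione transferase, was higher by 0.97 (SE 0.27, adjusted p = 0.0180), which the length-corrected fit brought to an adjusted p of 0.0506, and the call was also lost without Sham-Veh replicate 4 or TAC-THZ1 replicate 1 (adjusted p up to 0.0570). Of 37 nuclear genes for subunits of respiratory complex I, 9 were higher and 1 (Ndufs1) lower, where 10.9% and 11.8% of all genes were. Above both groups stood 7, where 1.42% of all genes did. In the length-corrected fit none was higher and 2 were lower, and the median went from 0.26 to 0.02. Ndufs1 was not called without TAC-THZ1 replicate 1 or 3. The 9 became 2 to 5 without any Sham-Veh replicate or TAC-THZ1 replicate 1, 2 or 4, and 18 without TAC-Veh replicate 1. These genes are short, with a median of 1243 bases of exon.

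Below both groups stood some genes of dividing cells. Mki67, the proliferation marker Ki-67, had 153, 139.6, 143 and 132 normalized counts in Sham-Veh and 42.6, 59.8, 75.7 and 91.0 in TAC-THZ1 (-1.12, SE 0.26, adjusted p = 0.00838), where TAC-Veh had a mean of 228. Tpx2, a spindle assembly factor, had 40.3, 57.0, 61.0 and 41.4 in Sham-Veh and 13.1, 26.7, 29.3 and 22.8 in TAC-THZ1 (-1.12, SE 0.27, adjusted p = 0.00986) and counted as overshot, with 0.75 in TAC-Veh (adjusted p = 0.0346). Of 20 cell cycle genes tested, 4 were lower than in Sham-Veh and none higher, where 11.8% of all genes were lower. In the length-corrected fit 3 were lower. Below both groups stood 3 of the 20, or 2 in the length-corrected fit. The 4 lower than in Sham-Veh were Mki67, Top2a (-1.06), Ccnb2 (-1.14) and Cenpf, and their count was 2 without Sham-Veh replicate 4 or TAC-THZ1 replicate 1. Top2a (adjusted p = 0.0196) also lost its call in the length-corrected fit (adjusted p up to 0.0708). Ccnb2 (adjusted p = 0.0305) had 6, 13, 17 and 25 reads in TAC-THZ1. Its call was lost without Sham-Veh replicate 1, 2 or 4 or TAC-THZ1 replicate 1 or 3 (adjusted p up to 0.104). In TAC-Veh Mki67 stood at 0.63 and Top2a at 0.64. Cenpf, a kinetochore protein, was below healthy in TAC-Veh as well (-2.95), further than in TAC-THZ1, and so was not below both groups. It had 483, 1003, 848 and 725 normalized counts in Sham-Veh and 158, 360.3, 219.7 and 133 in TAC-THZ1 (-1.87, SE 0.26, adjusted p = 0.000602). The replication genes Mcm2 (-0.19, adjusted p = 0.345) and Pcna (0.10, adjusted p = 0.424) did not pass. Nes, nestin, had 1642, 1313, 1352 and 1602 in Sham-Veh and 570.1, 659, 1097 and 975 in TAC-THZ1 (-0.88, SE 0.19, adjusted p = 0.00533), and TAC-Veh did not differ from Sham-Veh past the threshold (-0.18, adjusted p = 0.453). Tpx2, Top2a and Ccnb2 were named after their values were seen.

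Neutrophil genes were higher in the treated constricted hearts, very unequally between hearts. Of 12 markers 6 were tested, and all 6 were higher, where 10.9% of all genes were. Cxcr2 passed the filter on low values only through the TAC-THZ1 libraries, so its call was partly set by that filter, and the count is a description. The other 6 markers of the list (Ngp, Camp, Ly6g, Ltf, Mmp8 and Elane) did not reach 10 normalized counts in 4 libraries. They were not tested, whatever their level in single hearts, and the sums below include them. S100a8, a subunit of calprotectin, had 8.49, 15.2, 15.03 and 13.8 normalized counts in Sham-Veh and 2840.5, 321, 1048 and 56.4 in TAC-THZ1. The other subunit, S100a9, had 6.36, 24.9, 27.4 and 18.4 in Sham-Veh and 3518, 488, 1606 and 68.3 in TAC-THZ1. Replicate 1 was the highest and replicate 4 the lowest for both genes, and replicate 4 was still above each healthy heart. S100a9 was higher by 5.20 (SE 0.97, adjusted p = 0.00261) and above TAC-Veh by 3.75 (adjusted p = 0.00862). Lcn2, lipocalin 2 of neutrophil granules, was higher by 3.04 (SE 0.71, adjusted p = 0.00789), and Cxcr2, the chemokine receptor of neutrophils, named after its value was seen, by 3.36 (SE 0.68, adjusted p = 0.00399). The summed normalized counts of the 12 neutrophil markers were 88.0 to 133 in Sham-Veh and 9379, 1128, 4026 and 288 in TAC-THZ1, with 165 to 748 in TAC-Veh and 146 to 656 in Sham-THZ1.

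Red cell genes were also highest in TAC-THZ1 replicates 1 and 3. The summed counts of the erythroid markers were 6423 to 7005 in Sham-Veh and 31322, 7129, 18420 and 8997 in TAC-THZ1. Of 7 tested, 1 of which passed the filter only through TAC-THZ1, 4 were higher, where 10.9% of all genes were. But none was higher in the length-corrected fit, none without any 1 Sham-Veh replicate or TAC-THZ1 replicate 1 or 3, and 2 without Sham-THZ1 replicate 1 or 3. The share of blood in each heart piece was not measured, and its part in the neutrophil counts was not tested. Macrophage markers were higher in 6 of 17, where 10.9% of all genes were, and in 4 to 9 without any 1 library. The length-corrected fit left 1 of 17 (5.88%), under the 6.33% of all genes in that fit. Complement components were higher in 7 of 15 (5 in that fit, 11 without TAC-THZ1 replicate 2, with 1 of the 15 tested only through TAC-THZ1). The C1q chains C1qa, C1qb and C1qc are on both lists. C4b, complement component 4, had 309, 251, 211 and 255 normalized counts in Sham-Veh and 1241, 309, 996 and 365 in TAC-THZ1 (1.26, SE 0.41, adjusted p = 0.0356), again high in replicates 1 and 3. The C4b call was lost without any 1 Sham-Veh replicate or TAC-THZ1 replicate 1 or 3, with a replicate block and with robust eBayes (adjusted p up to 0.126). C1qb, a chain of the complement starter C1q, was higher by 0.81 (SE 0.19, adjusted p = 0.00845; length-corrected adjusted p = 0.0637).

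Genes of cytosolic ribosomal proteins were higher almost throughout. Of 74 tested, 70 were higher than in Sham-Veh and none lower, with a median log2 fold change of 0.52, against 0.40 in TAC-Veh, and the median difference between TAC-THZ1 and TAC-Veh was 0.14. They are short genes, and the length-corrected fit left 51 of 74 higher with a median of 0.31. Leaving out any 1 library gave 65 to 73. Rpl3 had 1041, 1042, 1064 and 977 normalized counts in Sham-Veh and 1970.1, 1449, 2405 and 1505 in TAC-THZ1 (0.80, SE 0.18, adjusted p = 0.00745), and Rps28 had 365, 375, 444 and 363 in Sham-Veh and 858, 672, 788 and 679.9 in TAC-THZ1 (0.95, SE 0.19, adjusted p = 0.00364). Reads of these genes are partly shared with near-copies: 66.4% of the 40-base windows of Rpl3 and 15.9% of those of Rps28 occur in another annotated gene.

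The transcripts of the kinases that THZ1 inhibits were near the healthy level. Cdk7 had 689.5, 683, 666 and 685 normalized counts in Sham-Veh and 545, 620.0, 642 and 595 in TAC-THZ1 (-0.18, SE 0.06, adjusted p = 0.0452), a call that the length-corrected fit lost (-0.01, adjusted p = 0.905), as did the fits without any 1 Sham-Veh replicate, Sham-THZ1 replicate 1, 2 or 3 or TAC-THZ1 replicate 1 or 4. Cdk12 (-0.23, adjusted p = 0.0718) and Cdk13 (-0.16, adjusted p = 0.0657) did not pass, and both intervals lay within 1.5-fold. Each passed as lower in 4 of 29 alternative fits. Transcript levels say nothing of kinase activity. Polr2a, the largest subunit of RNA polymerase II, had 1456, 1686, 1286 and 1718 in Sham-Veh and 881, 901, 854 and 789 in TAC-THZ1 (-0.83, SE 0.16, adjusted p = 0.00348) and kept its call in the length-corrected fit (-0.69, adjusted p = 0.00828). It was below healthy in TAC-Veh as well (-0.64, adjusted p = 0.00448).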

How the data were processed

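RNA from ventricle pieces was made into stranded mRNA libraries and sequenced as single-end reads of 40 bases. Per the labels and the study's methods, the authors aligned reads with TopHat2 2.1.1 to the mouse genome NCBIM37 (mm9), counted them per gene with HTSeq on the reverse strand, and divided the counts by DESeq2 size factors. The deposited values are these normalized counts (a signal scaled for depth), for 22372 protein-coding genes in 16 libraries. They were whole multiples of 1 read's worth in every library (100% of values within 0.01 of a whole number), so that reads could be recovered.

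Values were analysed as log2(normalized count + 1) with limma 3.58.1 (R 4.3.3), fitting 4 group means over 16 libraries with an intensity trend, after a filter of 10 normalized counts in at least 4 libraries. Fold changes on this scale understate those of low genes. P-values were adjusted by Benjamini-Hochberg over all 13331 genes tested. "Above both" and "below both" mean an adjusted p under 0.05 in the same direction against Sham-Veh and against TAC-Veh. Alternatives were other pseudocounts, filters, scalings, weights, thresholds, the 2 groups alone, each library left out, a replicate block, and edgeR 4.0.16 and DESeq2 1.42.0 on the recovered reads. Removal of the exon length trend, and list counts without TAC-THZ1 replicate 2, were added after the data were seen. The fits were tested on simulated data. Tables were made with pandas 2.3.3 and NumPy 2.4.6 under Python 3.11.15, and plots with Matplotlib 3.10.9. Sequences and exon lengths came from NCBIM37 and its GENCODE annotation.

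The comparison and all 48 gene lists were chosen with earlier results of these data known. Named genes were the 10 largest in each direction, the 10 largest overshot and the 10 largest past both groups, the 10 largest constriction genes near healthy, a panel of 16 and up to 4 from each list, at a mean of at least 100 normalized counts. Chosen after their values were seen were Thbs2, Col8a2, Col3a1, Nid1, Lamc1, Tpx2, Top2a, Ccnb2, Cxcr2, Ugt1a7c, Kcne4, Sdha and Ndufs1. Other lists, and some genes that this rule names, are not reported here.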

Additional observations from a re-analysis of the deposited data

Results flagged for a closer look

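In 11 of the 190 groups of 4 libraries behind the genes named, 1 library stood apart from the other 3 by Dixon's 95% ratio test, and chance alone flags about 1 in 20 such groups. In Sham-Veh replicate 1 was the highest for Thbs4 (128.4, next 104.3), Ankrd1 (44101.5, next 28613.2) and Ltbp2 (186.7, next 96.26) and the lowest for Nr1d1 (2439.8, next 2697.6), and replicate 3 was the highest for Rps28 (443.8, next 374.6). In TAC-THZ1 replicate 2 was the highest for Aqp4 (101.8, next 30.11), Kcnd2 (485, next 341.4) and Acot1 (126, next 61.36), 3 genes that were lower than in Sham-Veh, so that in each the library that stood apart was the one nearest to healthy. Replicate 4 was the highest for Xirp2 (36582.4, next 25385.7) and Ctgf (4159.4, next 2556.3), and replicate 3 for Pcna (584.3, next 548.3).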

How the results depend on the processing

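In 29 alternative fits of the 95 genes named, no gene that passed the test changed direction. Of 2752 values, 2627 kept direction and side of the threshold, 88 lost the threshold, 28 gained it and 9, all of genes that did not pass, changed sign. With the length trend removed, Gfra1 was at 0.060 and Nqo1 at -0.056, and with 1 library left out Vcan ranged from -0.088 to 0.20, Gpt from -0.12 to 0.0039 and Gfra1 from -0.15 to 0.056. With 1 library left out, the higher genes numbered 112 (without TAC-THZ1 replicate 3) to 221 (without TAC-THZ1 replicate 2) and the lower 82 to 152, genes called in both constricted groups 92 to 155 higher and 53 to 104 lower, genes above both vehicle groups 91 to 455 and below both 135 to 391, overshot genes 1 to 48 above and 4 to 64 below, and constriction genes still higher 85 to 135, still lower 44 to 90, and near healthy 31 to 103 and 38 to 100.

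For higher, lower, both higher, both lower, still higher and still lower genes in turn, a mean of at least 50 gave 85, 46, 67, 36, 65 and 33, a pseudocount of 10 gave 94, 51, 66, 40, 64 and 35, an adjusted p under 0.01 gave 93, 58, 72, 38, 69 and 33, and a 1.5-fold threshold gave 410, 363, 307, 251, 277 and 232, with 368 and 452 genes of the then longer constriction lists near healthy. Genes above and below both vehicle groups numbered 61 and 116 with the 2 groups alone, 97 and 122 with the length trend removed, and 21 and 40 at an adjusted p under 0.01, and array weights gave 294 above. Overshot genes above numbered 9 with the 2 groups alone, 41 with array weights, 6 with DESeq2 and with the length trend removed, 4 with edgeR and with quantile normalization, 3 with a mean of at least 50 and with upper quartile scaling, and 2 with a pseudocount of 10 and with robust eBayes. Overshot genes below numbered 34 with the 2 groups alone and with array weights, 30 with DESeq2, 11 with no filter and 1 at an adjusted p under 0.01. The 2 groups alone put 94 lower constriction genes near healthy. The causes were not tested. edgeR and DESeq2 gave no interval for the counts near healthy.

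The replicate numbers gave no clear pairing of the libraries: deviations of TAC-THZ1 and Sham-Veh libraries of the same number correlated at 0.09, 0.16, 0.06 and -0.03, and 2 of 4 correlated best with their own number. So few correlations cannot settle whether the libraries were paired. A replicate block gave 150 higher and 111 lower genes, and moved only the overshot genes above by over 1.5 times, to 4.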

Other observations

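Of 18 clock genes tested, 4 were lower and 2 higher in TAC-THZ1 than in Sham-Veh, where 11.8% of all genes were lower and 10.9% higher, and the length-corrected fit left 2 lower and 1 higher. The higher count is at the share of all genes. Without TAC-THZ1 replicate 2 the lower count was 7, and the higher count was 1 without any Sham-THZ1 or TAC-THZ1 replicate or Sham-Veh replicate 1, 2 or 3. Nr1d1, the clock repressor REV-ERB alpha, had 2439.8, 2729, 2736 and 2698 normalized counts in Sham-Veh and 1630.5, 1503, 1514 and 1590.3 in TAC-THZ1 (-0.76, SE 0.12, adjusted p = 0.00116), and was below TAC-Veh as well (-0.39, adjusted p = 0.0222). The times of day at which hearts were taken were not among the sources used here.

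Of 13 Wnt ligands and antagonists, 3 were higher and 2 lower, against 10.9% and 11.8% of all genes, or 2 and 1 in the length-corrected fit. Frzb, a secreted Wnt antagonist, had 139, 122, 106 and 96.5 normalized counts in Sham-Veh and 312, 220.2, 326 and 290.0 in TAC-THZ1 (1.30, SE 0.23, adjusted p = 0.00195), and Dkk3, of the Dickkopf family, had 72.1, 65.0, 56.6 and 47.1 and 194, 129.8, 317 and 243 (1.80, SE 0.29, adjusted p = 0.00126). Both were also higher in TAC-Veh than in Sham-Veh, by log2 differences of 3.18 and 3.68. The lower count was 1 without any Sham-Veh or Sham-THZ1 replicate or TAC-THZ1 replicate 2 or 4 and 0 without TAC-THZ1 replicate 1.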
